A study of Mus musculus with 8 samples.

Results

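Krt7, Krt8, Krt18, Krt19 and Krt10 are 5 keratin genes among the 55335 genes counted by RNA-seq in E14 mouse embryonic stem cells (ESCs). They were taken by gene symbol, each symbol matched 1 row of the counts, and all 5 were tested. The names were chosen by measured values of these same libraries, the contrast of Sox2-KD with control among them. Their values in any contrast with Sox2-KD are therefore given as a description, without a p-value.

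E14 is a line of mouse ESCs that grows without feeder cells. The cells were infected with lentiviruses carrying a control shRNA (labelled NG) or with shRNAs directed at Sox2, at Hnrnpk or at Cdk9, and no time after infection is given in the labels. The study's methods state that its knockdown experiments ended after a recovery step and several days of puromycin selection. Each of the 4 groups had 2 libraries, described by the study as biological duplicates. SOX2 is a pluripotency transcription factor, hnRNPK an RNA-binding protein and CDK9 the kinase of an elongation factor of RNA polymerase II.

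Keratins are intermediate filament proteins that polymerize only as pairs of an acidic type I and a basic type II chain. Krt8 (type II) and Krt18 (type I) form the pair of simple, single-layered epithelia and are among the first keratins made in the mouse embryo, in the trophectoderm. Krt7 (type II) and Krt19 (type I) are found in ducts and other simple epithelia, usually beside the first pair. Krt10 (type I) is a keratin of the differentiating layers of the epidermis and not of simple epithelia, although it is described with them here.

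Libraries held 16709201 to 17719366 counts, and levels below are CPM, counts scaled to a common library size with TMM factors. Sox2 mRNA stood at 68.0% and 60.1% of the control mean in the Sox2-KD libraries, and Cdk9 mRNA at 61.4% and 44.7% in the Cdk9-KD libraries. Hnrnpk mRNA stood at 62.7% in the first and 103% in the second library labelled hnRNPK-KD, so directions drawn from that group rest on libraries of which only the first had less of the targeted mRNA. The ESC genes Pou5f1, Nanog, Sox2, Zfp42, Esrrb, Dppa5a, Tdgf1 and Utf1 summed to 5500 to 6411 CPM in control. The sum was 4948 to 5419 CPM in Sox2-KD, below all other libraries. It was 5868 to 6065 CPM under the hnRNPK-KD label and 5923 to 6895 CPM in Cdk9-KD. The sum includes Sox2, the targeted gene, at 530 CPM in control replicate 2 and 284 CPM in Sox2-KD replicate 2. Without Sox2, Sox2-KD replicate 2 would not lie below control replicate 2. A gene was called at an adjusted p under 0.05 and an absolute log2 fold change (log2FC) over 0.6. In bulk RNA, more cells that make a keratin and more keratin mRNA per cell cannot be told apart.

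Krt8 lies on chromosome 15 (GRCm38) at 101996698 to 102004482 on the minus strand, and Krt18 at 102028180 to 102032027 on the plus strand, so that the pair is arranged head to head with starts 23698 bases apart. Krt7 lies on the same chromosome at 101411043 to 101430313, on the plus strand. Krt19 (100140810 to 100148665) and Krt10 (99385254 to 99389364) lie on the minus strand of chromosome 11. The 250 bases before the RefSeq start of Krt7, Krt8, Krt18 and Krt10 are shown because Krt8, Krt18 and Krt7 were higher together in the Sox2-KD libraries while Krt10 was not. RefSeq promoters (GRCm38.p6) matched 4 of the 5 genes, and Krt19 had no entry. Each sequence runs 5′ to 3′ on the gene's strand, and capitals mark matches, on either strand, to 8 motifs. A TATA box was read as TATAAA and a GC box as GGGCGG. The AP-1 motif was read as TGANTCA, the SOX core as ATTGTT and the POU octamer as ATGCAAAT. The TEAD motif was read as GGAATG, the GATA motif as GATAA and the AP-2 motif as GCCNNNGGC.
Krt8, chr15:102004343-102004592, minus strand: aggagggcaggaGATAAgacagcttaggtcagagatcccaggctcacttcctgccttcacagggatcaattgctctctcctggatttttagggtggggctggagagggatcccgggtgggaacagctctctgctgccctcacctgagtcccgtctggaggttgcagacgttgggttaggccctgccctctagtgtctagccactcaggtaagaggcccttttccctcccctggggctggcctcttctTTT
Krt18, chr15:102027966-102028215, plus strand: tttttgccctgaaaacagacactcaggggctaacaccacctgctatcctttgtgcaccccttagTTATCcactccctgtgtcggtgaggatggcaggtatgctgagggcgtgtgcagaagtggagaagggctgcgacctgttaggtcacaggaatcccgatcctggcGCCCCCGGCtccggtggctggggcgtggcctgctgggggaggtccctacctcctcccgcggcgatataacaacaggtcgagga
Krt7, chr15:101412153-101412402, plus strand: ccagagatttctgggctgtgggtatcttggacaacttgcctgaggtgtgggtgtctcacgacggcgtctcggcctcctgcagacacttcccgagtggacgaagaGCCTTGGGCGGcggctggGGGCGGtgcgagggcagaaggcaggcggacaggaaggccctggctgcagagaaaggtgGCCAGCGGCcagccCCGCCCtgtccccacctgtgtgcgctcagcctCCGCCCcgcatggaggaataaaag
Krt10, chr11:99389365-99389614, minus strand: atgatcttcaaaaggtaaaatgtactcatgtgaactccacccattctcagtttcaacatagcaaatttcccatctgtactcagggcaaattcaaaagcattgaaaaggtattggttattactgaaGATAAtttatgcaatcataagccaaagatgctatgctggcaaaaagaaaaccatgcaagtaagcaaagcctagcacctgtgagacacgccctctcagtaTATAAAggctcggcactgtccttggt

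The Krt8 and Krt18 windows had a GC content of 58.0% and 60.4%, Krt7 66.0% and Krt10 39.6%, against a median of 52.4% over 32851 RefSeq promoters. The motifs were searched over 300 bases, the 250 shown and the first 50 of the transcript. Krt8, Krt18 and Krt10 each held 1 GATA match, 238, 186 and 125 bases before the start, and 25.4% of all promoters hold one. Krt18 and Krt7 held AP-2 matches (1 and 2), which 16.6% of promoters hold. Krt7 also held 4 GC boxes, present in 35.7% of promoters, and 1 of them shares bases with an AP-2 match. A TATA box, present in 13.6% of promoters, began 26 bases before the start of Krt10. In Krt8 a TATA box match on each strand ran across the RefSeq start, so that only its first 3 bases appear in capitals above. That start lies 140 bases inside the GENCODE transcript of Krt8, and the start of Krt18 lies 36 bases inside its own. The AP-1, SOX, POU and TEAD motifs, held by 7.81%, 10.7%, 1.74% and 14.7% of promoters, had no match in the 4 windows, which says only that these letters are not there.

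Krt8, the type II chain of the simple epithelial pair, was the most abundant keratin in every library. Its level was 18.4 and 17.4 CPM in the control libraries, 97.1 and 182 CPM in the Sox2-KD libraries, 30.4 and 18 CPM under the hnRNPK-KD label, and 23.4 and 25.8 CPM in the Cdk9-KD libraries. Both Sox2-KD libraries stood above all 6 others. Its log2FC of Sox2-KD against control was 2.97 ± 0.31 (SE, n = 2 against 2), a 7.81-fold difference in the fit. The Krt8 pseudogene Krt8-ps held 0 to 18 counts per library, at most 0.645% of the counts of Krt8.

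Krt18, the type I partner of Krt8, had the largest fold difference of the 5 keratins between Sox2-KD and control. Its level was 3.27 and 2.86 CPM in control, 41.4 and 82.7 CPM in Sox2-KD, 5.57 and 1.45 CPM under the hnRNPK-KD label, and 4.03 and 2.90 CPM in Cdk9-KD. The Sox2-KD libraries again stood apart from the rest, whereas the libraries labelled hnRNPK-KD lay on both sides of control. The log2FC of Sox2-KD against control was 4.34 ± 0.52, or 20.2-fold. Krt18 was thus low beside Krt8 in control cells and came nearer to it in the Sox2-KD libraries.

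Krt19, a type I keratin without a tail domain, was at 2.14 and 1.95 CPM in control and at 7.69 and 22.7 CPM in Sox2-KD. The libraries labelled hnRNPK-KD held 2.11 and 2.68 CPM, and the Cdk9-KD libraries 1.64 and 1.48 CPM. The ratio between the Sox2-KD libraries, 2.95, was larger than for the other 4 keratins, and both libraries still exceeded all others. The log2FC of Sox2-KD against control was 2.89 ± 0.47.

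Krt7, a type II keratin, was close to undetected outside the Sox2-KD libraries. It had 5 counts in each control library, 59 and 86 counts in the Sox2-KD libraries, and 2 and 0 counts both under the hnRNPK-KD label and in the Cdk9-KD libraries. Krt7 passed the filter on low counts only through the Sox2-KD libraries, so a difference there was built into its being tested. Its summed counts gave a ratio of Sox2-KD to control of 14.3, with an exact 95% interval of 7.55 to 30.4 that covers counting error only. The fitted log2FC was 3.81 ± 0.64.

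Krt10, the epidermal type I keratin, did not follow the other 4. Its level was 2.08 and 2.75 CPM in control, 2.69 and 3.42 CPM in Sox2-KD, 2.99 and 3.26 CPM under the hnRNPK-KD label, and 1.75 and 2.48 CPM in Cdk9-KD. The Sox2-KD and control libraries overlapped, and the log2FC between them was 0.34 ± 0.35. Its 30 to 60 counts per library limit the size of the difference that could be seen.

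**Figure D1:**
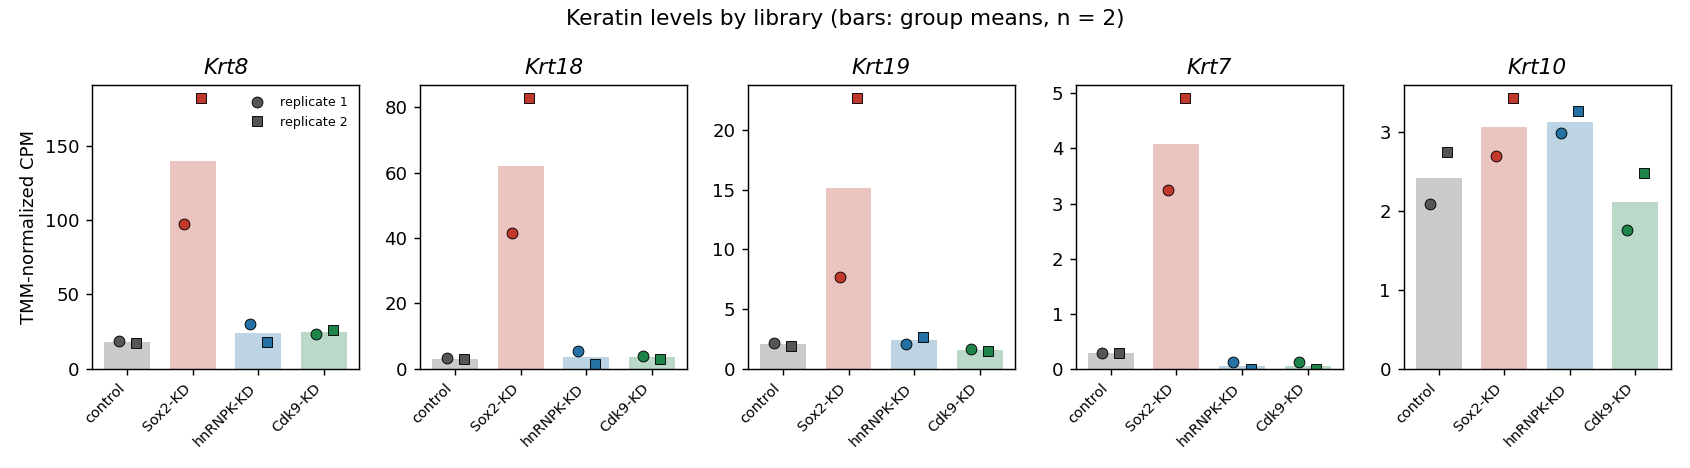
Level of each keratin (TMM-normalized CPM, linear axes from 0, a separate scale for each gene) in the 2 libraries of each group, with bars at the group means. Krt8, Krt18, Krt19 and Krt7 are higher in both Sox2-KD libraries than in all 6 others, and Krt10 lies between 1.75 and 3.42 CPM throughout.

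In the fit over 16504 genes, 4 of the 5 keratins were called higher in Sox2-KD than in control, where 4.32% of all genes tested were called (434 higher and 279 lower). Since this contrast chose the names, nothing is read from that count. Without control replicate 1, control replicate 2 or Sox2-KD replicate 2 it was 2, Krt8 and Krt18, and 170, 151 and 144 genes were then called in all. The levels in Sox2-KD replicate 2 exceeded those in replicate 1 by a factor of 1.87 for Krt8, 2.0 for Krt18, 2.95 for Krt19, 1.51 for Krt7 and 1.27 for Krt10. Replicate 2 was also the library with less Sox2 mRNA, and with 2 libraries this order was not tested.

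The contrasts of Sox2-KD with the other knockdowns gave a like picture, and they use the same Sox2-KD libraries. Against the libraries labelled hnRNPK-KD, 4 of the 5 were called higher, where 5.9% of all genes were called, with a log2FC of 2.53 ± 0.31 for Krt8, 4.14 ± 0.52 for Krt18 and 2.66 ± 0.46 for Krt19. Krt10 had a log2FC of -0.03 ± 0.35 there. Against Cdk9-KD, 4 of the 5 were called higher, where 7.33% of all genes were called, with a log2FC of 2.50 ± 0.31 for Krt8, 4.16 ± 0.52 for Krt18, 3.28 ± 0.48 for Krt19 and 0.53 ± 0.36 for Krt10. Krt7 had a counting ratio of 69.5 (95% interval 18.9 to 579) and 69.1 (18.8 to 576), each against a group with 2 counts in all. The Sox2-KD values chose the names, so nothing is read from these counts of calls either, and Krt7, which was tested only because of the Sox2-KD libraries, is among them.

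Neither of the other knockdowns changed a keratin past the threshold. These contrasts share the control libraries with the one that chose the names. In the libraries labelled hnRNPK-KD against control, 0 of the 5 keratins were called, and 0% of all genes tested were called by edgeR's quasi-likelihood test, with 1325 at an unadjusted p under 0.05, 87 called by the likelihood ratio test and 74 by DESeq2. Krt8 had a log2FC of 0.44 ± 0.30 (edgeR quasi-likelihood, adjusted p = 0.793) and Krt18 of 0.19 ± 0.53 (adjusted p = 0.964). Krt19 had 0.23 ± 0.48 (adjusted p = 0.956 in the edgeR quasi-likelihood test). Krt10 had 0.37 ± 0.35 (adjusted p = 0.874 in that test), with both libraries of the label above both control libraries. The spread of the pair within this group was wide, since replicate 1, the library with less Hnrnpk mRNA, held more of both genes than either control library, whereas replicate 2 lay within the control range for Krt8 and below it for Krt18. With replicate 1 as the sole library of the group, Krt8 had a log2FC of 0.74 and Krt18 of 0.84, and with replicate 2 alone these were 0.00 and -1.08, none of them called.

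In Cdk9-KD against control, 0 of the 5 keratins were called, where 0.139% of all genes were called. Krt8 was 1.38-fold higher, with both Cdk9-KD libraries above both control libraries, a log2FC of 0.46 ± 0.30 and an adjusted p of 0.642 in the edgeR quasi-likelihood test. Krt19 was below control in both libraries, with a log2FC of -0.39 ± 0.50 (adjusted p = 0.849). Krt18 and Krt10 overlapped with control, at 0.18 ± 0.53 (adjusted p = 0.949) and -0.19 ± 0.36 (adjusted p = 0.914). Over 8 alternatives of normalization, filter, samples, covariate and test, the adjusted p of these 4 keratins lay between 0.538 and 1 for Cdk9-KD and between 0.685 and 1 for the libraries labelled hnRNPK-KD.

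Krt7 had the same 2 and 0 counts in both of these groups, against 10 in control. The ratio to control was 0.206 (exact 95% interval 0.0219 to 0.965) under the hnRNPK-KD label and 0.207 (0.0220 to 0.971) in Cdk9-KD, counting error only. The fitted log2FC of -2.15 ± 1.06 and -2.14 ± 1.06 depends on how counts of 0 are treated, and its adjusted p in the edgeR quasi-likelihood test was 0.652 and 0.522. A difference in Krt7 between these groups and control was not detectable at this depth once the spread between libraries was counted.

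**Figure D2:**
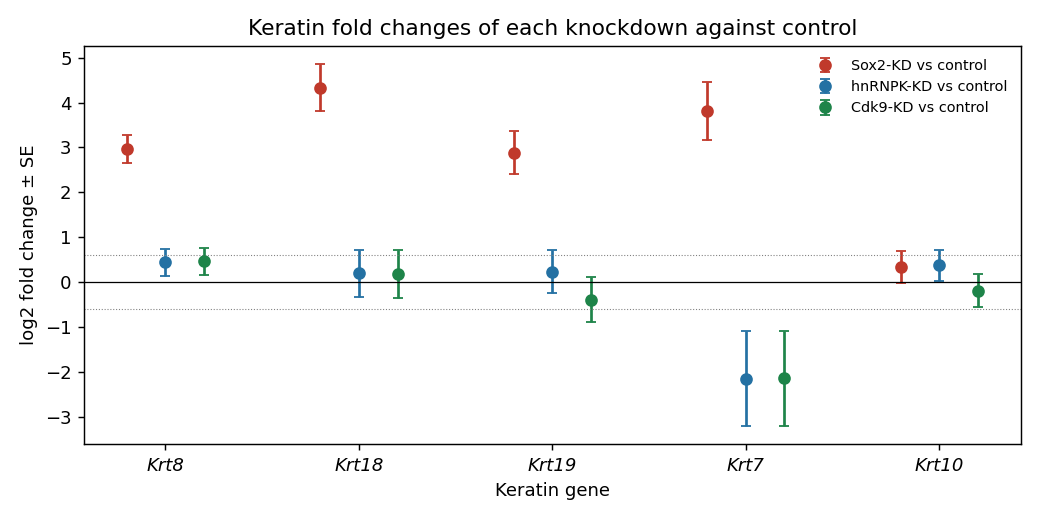
Log2 fold change with SE (vertical bars) of the 5 keratins in each knockdown against the same 2 control libraries, from 1 fit over all 8 libraries. The dotted lines stand at the limit of 0.6. Sox2-KD values reach 4.34 for Krt18, while Krt10 stays below 0.6 in all 3 contrasts; the negative Krt7 values rest on 2 counts.

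Per kilobase of the principal transcript, which allows genes to be compared with each other, Krt8 led in all libraries. The level in control was 9.12 ± 0.361 CPM per kilobase (SD, n = 2) for Krt8, 2.13 ± 0.198 for Krt18, 1.30 ± 0.0862 for Krt19, 1.15 ± 0.225 for Krt10 and 0.0694 ± 0.000843 for Krt7. Krt19 and Krt10 overlapped, and the other neighbours in this order did not. In Sox2-KD the levels were 71.3 ± 30.6 for Krt8, 43.2 ± 20.3 for Krt18, 9.63 ± 6.71 for Krt19, 1.46 ± 0.247 for Krt10 and 0.995 ± 0.288 CPM per kilobase for Krt7. There the ranges of Krt8 and Krt18 overlapped while the 3 lower steps were distinct. Thus Krt7, despite its fold difference, remained the lowest of the 5 per kilobase. This rank rests on the length used, 4094 bases for Krt7 and 2094 for Krt10. Before division by length, Krt7 exceeded Krt10 in both Sox2-KD libraries, at 3.24 and 4.91 against 2.69 and 3.42 CPM.

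In the libraries labelled hnRNPK-KD the levels per kilobase were 12.4 ± 4.45 for Krt8, 2.44 ± 2.02 for Krt18, 1.52 ± 0.254 for Krt19 and 1.49 ± 0.0909 for Krt10, and those of the last 3 overlapped. In Cdk9-KD they were 12.6 ± 0.895, 2.41 ± 0.557, 0.988 ± 0.0705 and 1.01 ± 0.247 for the same genes. Krt19 and Krt10 again overlapped there, and Krt18 stood above them.

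Krt8 exceeded its partner less in the Sox2-KD libraries than in the 6 others. The ratio of Krt8 to Krt18 per kilobase was 4.13 and 4.45 in control and 1.72 and 1.61 in Sox2-KD, with exact 95% counting intervals of 3.11 to 5.55, 3.29 to 6.13, 1.58 to 1.88 and 1.52 to 1.72. It was 4.0 and 9.10 under the hnRNPK-KD label and 4.25 and 6.55 in Cdk9-KD. The highest value, in hnRNPK-KD replicate 2, rests on 25 counts of Krt18 and has an interval of 6.05 to 14.3. The sum of the type II genes over that of Krt18 and Krt19 was 2.60 and 2.77 in control and 1.5 and 1.31 in Sox2-KD. All 8 libraries therefore held more type II than simple type I keratin mRNA, and the Sox2-KD libraries were nearest to equal amounts.

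**Figure D3:**
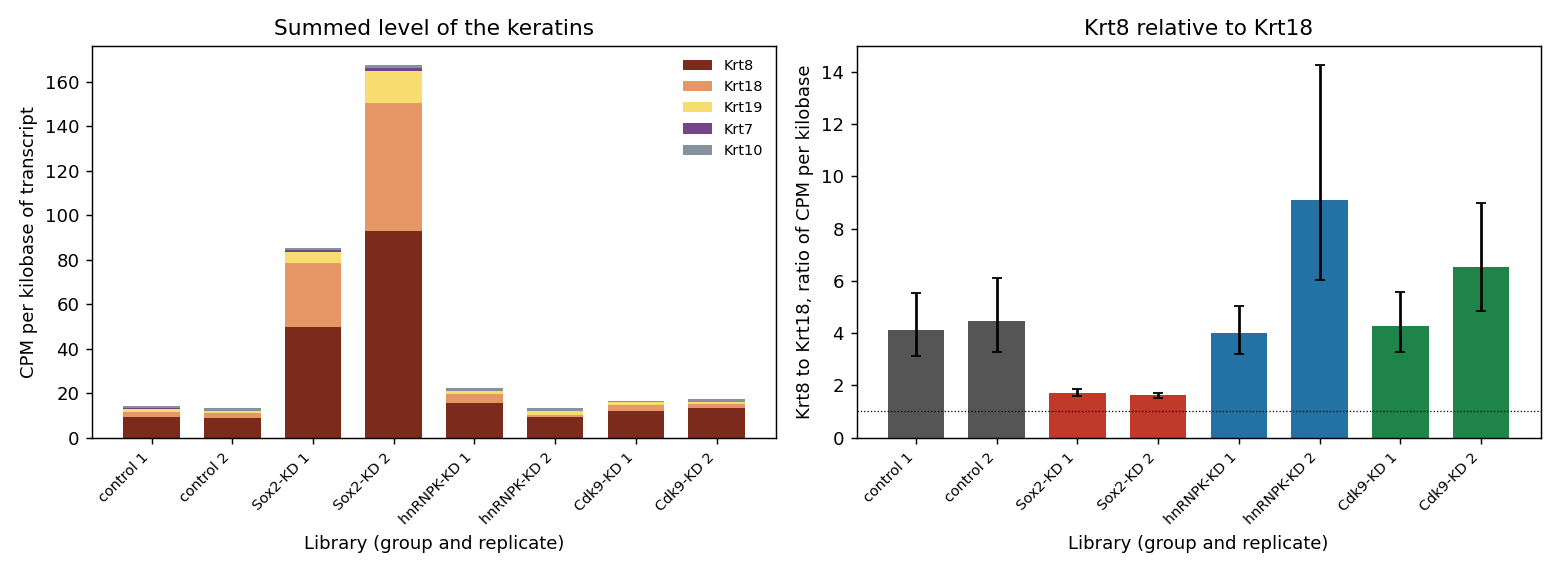
Left, summed level of the 5 keratins in CPM per kilobase by library. Right, ratio of Krt8 to Krt18 on the same scale with exact 95% counting intervals, the dotted line marking equal amounts. The Sox2-KD libraries have the highest sums and ratios of 1.72 and 1.61, against 4.0 or more in all other libraries.

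Few neighbours of the pair on the chromosome had enough counts to be tested. Within 100 kb of Krt8 and Krt18 the annotation holds 8 other genes, of which 3 were tested and 0 called in Sox2-KD against control, with 1 at an unadjusted p under 0.05. These 3, the translation factor gene Eif4b, the focal adhesion gene Tns2 and Spryd3, had a log2FC from -0.29 to 0.55, and by edgeR's quasi-likelihood test an adjusted p of 0.288, 0.620 and 0.141. The other 5 include the stratified epithelial keratins Krt4, Krt78 and Krt79, which had too few counts to be tested. Overlapping genes held few reads, with at most 5 counts per library in Gm36026, which overlaps Krt8, and at most 4 in Gm11940, which overlaps Krt10.

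Across the 8 libraries the log2 CPM of Krt8 and Krt18 had a Pearson correlation of 0.98, and those with Krt7 and Krt19 ranged from 0.89 to 0.95, whereas Krt10 had 0.30 to 0.56 with the other 4. These values describe 8 points that fall into 4 groups of 2 and mostly carry the step between Sox2-KD and the rest. Among 12521 genes, those nearest to the mean of Krt8 and Krt18 included Slc25a23 (r = 0.991), a mitochondrial carrier, the adhesion receptor gene Adgrg1 (0.988), the lipid kinase gene Dgka (0.987) and Cldn7 (0.987), a tight junction claudin. Cldn7 had 17 and 12 counts in control, 64 and 118 in Sox2-KD, 17 and 11 under the hnRNPK-KD label and 18 and 12 in Cdk9-KD. By the same measure Krt19 ranked 129 (r = 0.925) and Krt10 3471 (0.374). Krt7 was too low on average to be among the genes compared, and its r of 0.932 would have ranked 111. The genes nearest to Krt7 alone were Osbpl9 (0.994), Slc16a9 (0.991) and Ppp1r13b (0.99), those nearest to Krt19 were Tdrd7 (0.987), Cers2 (0.984) and Sh2b3 (0.983), and those nearest to Krt10 were Cds2 (0.943), Slc11a2 (0.934) and Setdb1 (0.925).

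Few other keratins were present. Of 54 keratin genes, the 49 others included 18 at 0 counts in all libraries, 21 with 1 to 10 counts in all 8 together, and 4 that were tested. The 5 keratins held 84.8% and 84.1% of all keratin counts in control, 92.6% and 97.4% in Sox2-KD, 86.8% and 84.9% under the hnRNPK-KD label and 79.2% and 86.5% in Cdk9-KD. All keratins together amounted to 30.8 and 30.0 CPM in control and 164 and 304 CPM in Sox2-KD. Among the 49 others, 1 of the 4 tested was called in Sox2-KD, the type I keratin gene Krt23. It had 1 and 0 counts in control, 152 and 58 in Sox2-KD, 15 and 6 under the hnRNPK-KD label and 2 and 0 in Cdk9-KD. Like Krt7, it was tested only because of the Sox2-KD libraries, so that a difference was built into its being tested and no p is given, and there replicate 1 was the higher one. Its counting ratio to control was 207 (95% interval 36.8 to 8215). Krt42, Krt222 and Krt17, the other 3 tested, were not called in any knockdown. Krt42 had 41 and 28 counts in control and 17 and 13 in Sox2-KD, a log2FC of -1.22 ± 0.45. Krt222 and Krt17 had 0.22 ± 0.47 and -0.10 ± 0.77 in that contrast. The basal epidermal keratin gene Krt14 had 5 and 8 counts in the Sox2-KD libraries, 2 in hnRNPK-KD replicate 1 and 0 in the others.

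The gene lists here and below were chosen with earlier results of these data known. Adjusted p-values of list genes in Sox2-KD are therefore a description and not independent tests. Of 14 tested genes for other intermediate filaments, 3 rose and 1 fell in Sox2-KD by edgeR's quasi-likelihood test. Vim, which encodes the mesenchymal filament protein vimentin, was at 280 and 260 CPM in control and 148 and 93.1 CPM in Sox2-KD, and fell by 1.16 ± 0.22 on the log2 scale (adjusted p = 0.0171). The neuronal filament genes Nefl (log2FC 1.73 ± 0.29, adjusted p = 0.0114) and Prph (2.32 ± 0.52, adjusted p = 0.0349) rose, as did Sync (1.18 ± 0.28, adjusted p = 0.0403), which encodes syncoilin. The list as a whole summed to 1098 to 1192 CPM in control and 1075 to 1080 CPM in Sox2-KD. Without control replicate 1, control replicate 2 or Sox2-KD replicate 2, 0 genes of this list were called.

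Desmosomes and plakins anchor keratin filaments to the cell membrane and to other filaments. Of 14 tested genes of this list, 5 rose in Sox2-KD and 0 fell. They were the desmosomal cadherin genes Dsc2 (log2FC 2.53 ± 0.45, adjusted p = 0.0130 in edgeR's quasi-likelihood test) and Dsg2 (0.62 ± 0.15, adjusted p = 0.0440), the plaque genes Jup (0.63 ± 0.14, adjusted p = 0.0295) and Pkp2 (0.98 ± 0.24, adjusted p = 0.0449), and the cytolinker gene Plec (1.11 ± 0.20, adjusted p = 0.0140). Dsp, whose product desmoplakin ties keratins to the plaque, did not pass the test, with 19.8 and 23.2 CPM in control and 14.5 and 20.3 CPM in Sox2-KD. The median log2FC of the list was 0.63, against 0.02 over all genes tested. Its count was 0 without control replicate 1 or 2, 1 without Sox2-KD replicate 1 or 2, and 2 with no filter on low counts.

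Of 8 tested keratin-binding genes, 1 rose in Sox2-KD and 0 fell. It was Sfn, which encodes the epithelial adaptor protein 14-3-3 sigma, with 11.8 and 13.7 CPM in control and 41.7 and 60.6 CPM in Sox2-KD (log2FC 2.01 ± 0.39, adjusted p = 0.0193 in edgeR's quasi-likelihood test). The call was lost without control replicate 1, control replicate 2 or Sox2-KD replicate 2.

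**Figure D4:**
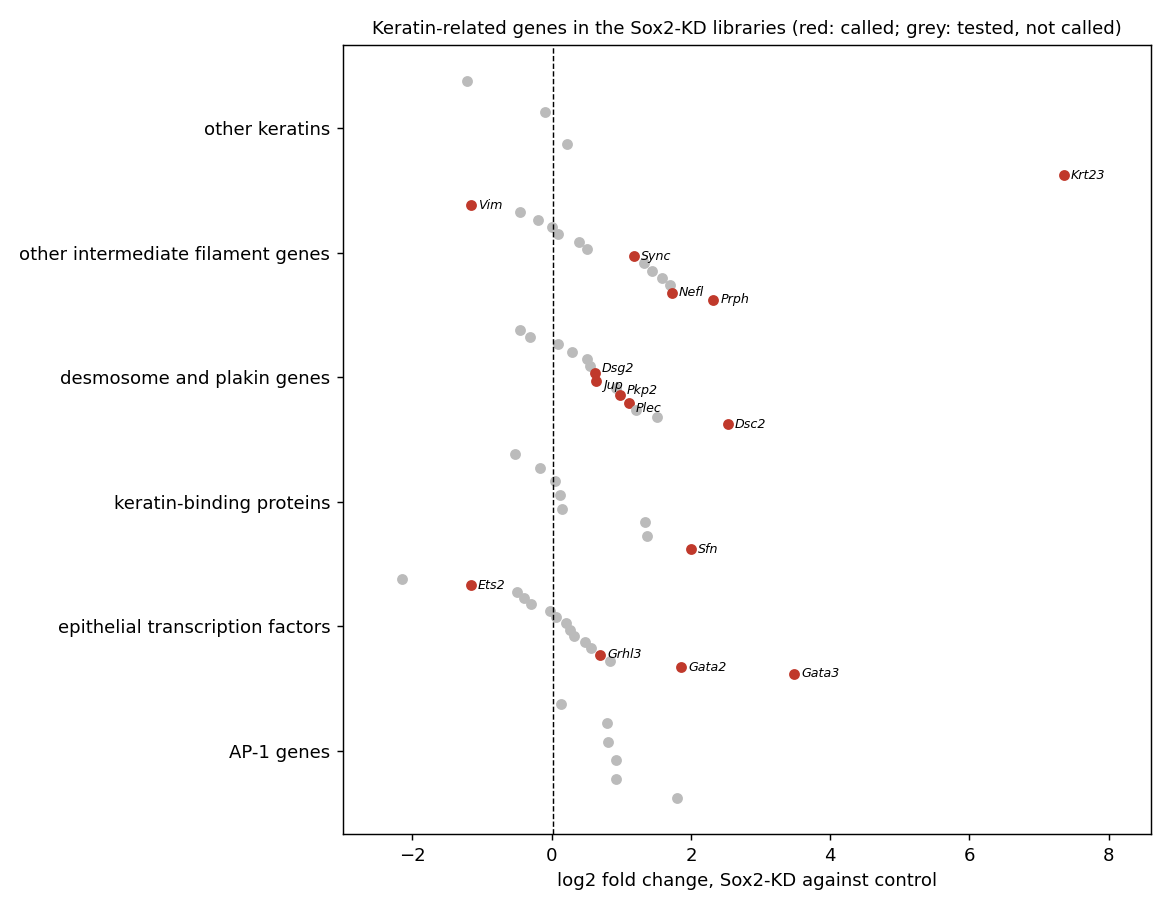
Log2 fold change of Sox2-KD against control (horizontal axis) for the tested genes of 6 lists, each point 1 gene. Red points with names were called and grey points were not; the dashed line is the median of all genes tested, 0.02. Krt23 lies farthest to the right, and Vim and Ets2 are the called genes on the left.

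Of 16 tested epithelial transcription factor genes, 3 were called higher in Sox2-KD and 1 lower. Gata3, a trophectoderm and luminal epithelial factor, had 5 and 3 counts in control and 43 and 50 in Sox2-KD (log2FC 3.48 ± 0.58). It passed the filter on low counts only through the Sox2-KD libraries, so its call was favoured by the filter and no p is given. Gata2 (1.86 ± 0.44, adjusted p = 0.0404 in edgeR's quasi-likelihood test) and the surface ectoderm factor gene Grhl3 (0.70 ± 0.17, adjusted p = 0.0498) also rose, and Ets2 fell by 1.16 ± 0.21 (adjusted p = 0.0131). Cdx2, the trophectoderm factor, had 351 and 613 counts in control and 111 and 109 in Sox2-KD (log2FC -2.15 ± 0.54, adjusted p = 0.0521, not called). Elf5, a factor of trophoblast stem cells, had at most 2 counts in any library. The count of 4 for this list became 2 without control replicate 1, 0 without control replicate 2, 1 without either Sox2-KD library, 2 with no filter on low counts and 2 with at least 10 counts in every library. Of 6 tested AP-1 genes, 0 were called in Sox2-KD by edgeR's quasi-likelihood test, with 3 at an unadjusted p under 0.05, 2 called by the likelihood ratio test, 2 by DESeq2 and a median log2FC of 0.86.

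Marker gene lists of several cell types, not all of them cells that carry these keratins, were also measured. They too were chosen with earlier results of these data known, so their adjusted p-values are a description. Of 6 tested trophoblast genes, 2 were called in Sox2-KD, Gata2 and Gata3 again, and the placental genes Tpbpa and Prl3d1 were at 0 in all libraries. The trophoblast list summed to 74.9 to 89.7 CPM in control and 56.3 to 71.0 CPM in Sox2-KD. Of 11 tested primitive endoderm genes, 3 were called higher and 1 lower. Dab2, which rises as primitive endoderm forms, had 12 and 15 counts in control and 637 and 950 in Sox2-KD (log2FC 5.85 ± 0.40, adjusted p = 0.000187 in edgeR's quasi-likelihood test). The matrix gene Sparc rose too (1.42 ± 0.20, adjusted p = 0.00563), and the laminin gene Lama1 fell by 1.01 ± 0.20 (adjusted p = 0.0215). The other called gene, Gata6, had 4 and 5 counts in control and 49 and 68 in Sox2-KD, and like Gata3 it passed the filter only through the Sox2-KD libraries. Gata4 did not rise with it, at 17 and 17 counts in control and 21 and 8 in Sox2-KD (log2FC -0.25 ± 0.51, not called). The median log2FC of the tested genes of the list was 1.42. This list summed to 406 to 423 CPM in control and 535 to 702 CPM in Sox2-KD. Without control replicate 1 or 2, 2 of its genes were called.

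Stratified epithelial genes were scarce, with 2 of 6 tested and a median log2FC of 0.80 in Sox2-KD. Of these 2, 0 were called by edgeR's quasi-likelihood test, its likelihood ratio test or DESeq2, and 1 was at an unadjusted p under 0.05. The list summed to 12.4 to 18 CPM in control and 18.6 to 35.0 CPM in Sox2-KD. Of 5 tested fibroblast genes, 1 was called, Lum, with 0 and 1 counts in control and 23 and 13 in Sox2-KD, and Twist2 was at 0 throughout. Lum too was tested only because of the Sox2-KD libraries, and its call was lost in DESeq2 and without any 1 of the 4 libraries compared. Of 4 tested mesoderm genes, 1 rose in Sox2-KD, Eomes (1.5 ± 0.28, adjusted p = 0.0166 in edgeR's quasi-likelihood test). Of the 8 ESC genes, Utf1 was called higher and Sox2 lower, but the call of Sox2 held in 5 of 16 alternatives and that of Utf1 in 11, and with no filter on low counts neither was called. The part of any of these cell types in the keratin levels was not tested.

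In the libraries labelled hnRNPK-KD, 0 genes of the 12 lists were called by edgeR's quasi-likelihood test, with 14 entries at an unadjusted p under 0.05, 3 called by the likelihood ratio test and 2 by DESeq2. In Cdk9-KD, 25 entries were at an unadjusted p under 0.05 by edgeR's quasi-likelihood test and 3 were called. The likelihood ratio test called 5 and DESeq2 7. Of the 14 tested genes for other intermediate filaments, 8 were at an unadjusted p under 0.05 and 0 called, with a median log2FC of -0.58. The called genes were Tfap2c, a trophectoderm factor gene held by the epithelial and trophoblast lists, and Eomes. Tfap2c fell from 771 and 751 counts in control to 225 and 132, and Eomes rose from 68 and 45 to 333 and 241. Both calls were lost without control replicate 1 or 2, and that of Tfap2c also without Cdk9-KD replicate 2. Krt8 and Krt18 had no called change in those libraries, as given above.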

How the data were processed

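E14 ESCs with a control shRNA or knockdown of Sox2, hnRNPK or Cdk9 were sequenced by RNA-seq in biological duplicates (8 libraries, 4 groups). The authors deposited whole-number counts per gene, neither normalized nor pooled. Reads had been trimmed with Trimmomatic, aligned with STAR to mm10 (version 2.7.9a in the submitters' processing notes, with a different release given in the study's methods), and counted with featureCounts 2.0.1. The strand setting and the handling of reads shared between genes were not given in the sources used here, so overlapping genes cannot be separated.

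Of 55335 genes, 55154 had a symbol in the annotation used (GENCODE vM21). filterByExpr (minimum count 10, minimum total 15) left 16504. All 8 libraries, at 16709201 to 17719366 counts, entered 1 quasi-likelihood fit of edgeR 4.0.16 under R 4.3.3, on TMM factors and the group alone, with p-values adjusted by Benjamini and Hochberg's method, and the spread was shared over the groups. SE is the log2FC divided by the root of the F statistic. Levels per kilobase used the length of the principal transcript. Exact intervals are Clopper-Pearson intervals and cover counting error only. Log2 CPM for correlations used a prior count of 2, over genes with an average log2 CPM over 1.

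The 5 keratins and all gene lists were chosen with earlier results of these data known. The genes named were the 5 keratins, list genes called in any contrast with control or among the most abundant of their list, the 5 genes nearest to the mean of Krt8 and Krt18, and the 3 nearest to each other keratin, of which 1 is not reported here. Krt14, Cdx2, Elf5, Dsp, Gata4, Tpbpa, Prl3d1, Twist2 and the genes beside Krt8 and Krt18 were named after their values were seen. The test was checked on simulated counts. Alternatives were RLE factors, library totals, a minimum of 10 counts throughout, an unfiltered table, a fit of the 4 libraries of a contrast alone, a replicate block, the likelihood ratio test, DESeq2 1.42.0, no limit on log2FC, and leaving out each library. Those for list genes and gene length were chosen after seeing the data.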

Additional observations from a re-analysis of the deposited data

How the results depend on the processing

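In the 3 contrasts with Sox2-KD, the choice of the names fixes the direction of Krt8, Krt18, Krt19 and Krt7, so no stability is read from it. With at least 10 counts in every library, Krt7 was removed. The number of the 5 keratins called in Sox2-KD against control ranged from 2 to 4 with a library left out, and was 2 without control replicate 1, control replicate 2 or Sox2-KD replicate 2, when Krt7 and Krt19 were lost. Krt19 was also lost against the libraries labelled hnRNPK-KD without Sox2-KD replicate 2 or either hnRNPK-KD library. Among the contrasts with control, directions turned in 3 cases, all of values not called. Without hnRNPK-KD replicate 1, Krt18 had a log2FC of -1.08 against control, in a range of -1.08 to 0.84 with a library left out. Without Cdk9-KD replicate 1, Krt18 had -0.11 (range -0.11 to 0.39) and Krt10 0.0071 (range -0.46 to 0.0071) against control. Krt10 in Sox2-KD against the libraries labelled hnRNPK-KD, at -0.03, was 0.077 with library totals and -0.22 to 0.12 with a library left out. The cause was not tested. A group left with 1 library was assumed to vary like the others.

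The count of all genes called in Sox2-KD against control was 713, and 1350 by the likelihood ratio test, with 144 to 840 when a library was left out. For the libraries labelled hnRNPK-KD against control it was 0, 1 with no filter, 87 by the likelihood ratio test and 74 by DESeq2, with 0 to 1 when a library was left out. For Cdk9-KD against control it was 23, 279 by the likelihood ratio test and 221 by DESeq2, with 0 to 33 when a library was left out. For Sox2-KD against the libraries labelled hnRNPK-KD it was 974 and 1690 by the likelihood ratio test (90 to 1100), and against Cdk9-KD 1210 and 1869 (337 to 1286). In Sox2-KD against control the count was 170 and 151 without control replicate 1 and 2, and 343 and 144 without Sox2-KD replicate 1 and 2. In Cdk9-KD against control it was 1 and 0 without control replicate 1 and 2, and 6 without Cdk9-KD replicate 2. Against the libraries labelled hnRNPK-KD it was 517 and 129 without hnRNPK-KD replicate 1 and 2 and 90 without Sox2-KD replicate 2, and against Cdk9-KD 546 without Cdk9-KD replicate 2 and 337 without Sox2-KD replicate 2. Of 23 list genes called in Sox2-KD against control, 20 lost the call without at least 1 Sox2-KD or control library, and Sparc, Dab2 and Krt23, the last tested only because of the Sox2-KD libraries, did not. In Cdk9-KD, the calls of Tfap2c and Eomes were lost without either control library.

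The labels give a replicate number and do not say whether same-numbered libraries were prepared together. The correlation of their deviations from the group means was over 0.1 in 3 of 6 pairs of groups and ranged from -0.22 to 0.21. With the replicate number as a block, 15 genes were called in Cdk9-KD against control in place of 23, and the count of keratins called was unchanged in all 5 contrasts.

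With the union of all annotated exons as length, chosen after seeing the data, the level of Krt7 in Sox2-KD was 0.578 in place of 0.995 CPM per kilobase, and the control level of Krt19 was 1.10 in place of 1.30, below Krt10 at 1.14. Depth limits Krt7, with 0 to 5 counts per library outside Sox2-KD, and Krt10.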
